A study of Mus musculus with 19 samples.

Results

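Interferon regulatory factors were followed, with the lectin gene Siglech and the leucine zipper gene Batf3, through 3 progenitor stages of early innate lymphoid development in the mouse. The genes are Irf1, Irf2, Irf3, Irf4, Irf5, Irf7, Irf8, Irf9, Siglech and Batf3, taken by name from the deposited expression table. All 10 were present among its 18607 genes, and all 10 were tested. RNA was sequenced in 19 libraries from cells sorted from bone marrow of C57BL/6 mice. ALP (common lymphoid progenitors, 7 libraries) had low lineage markers and Ly-6D, carried Kit and IL-7Ra, were high for Flt3, and came from Tcf7EGFP/+ mice, in which green fluorescence reports Tcf7. EILP (early innate lymphoid progenitors, 7 libraries) came from Tcf7EGFP/+ mice too and had low lineage markers, Ly-6D, CD122 and Thy-1.2, Kit, high fluorescence and intermediate to low IL-7Ra. ILCp (progenitors of innate lymphoid cells, 5 libraries) had low lineage markers, Ly-6D and CD122, with Kit, high fluorescence, Thy-1.2, a4b7 integrin and high IL-7Ra. ILCp 1, ILCp 2 and ILCp 3 came from Tcf7EGFP/+ mice, whereas ILCp 4 and ILCp 5 came from Plzf-cre-GFP/+ mice, where fluorescence reports Plzf. All groups carry a reporter allele, and the labels give neither age nor the number of mice per library. Whether libraries of 1 stage are separate animals or repeats is not stated, and p-values then describe only how far these libraries scatter, which may be technical scatter.

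Interferon regulatory factors share a DNA-binding domain that recognises GAAA repeats. Irf3, Irf5 and Irf7 carry signals from sensors of microbial nucleic acid to the interferon genes, and Irf9 acts downstream of the type I interferon receptor. Irf4 and Irf8 act with partner factors and steer blood cell lineages: Irf8 is needed for dendritic cells and monocytes, Irf4 for plasma cells. Batf3 pairs with JUN proteins and, with Irf8, maintains cross-presenting dendritic cells, and Siglech is a sialic acid-binding receptor of mouse plasmacytoid dendritic cells and their precursors.

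The promoters of 4 genes that differed between stages are shown as the sequence context of the genes that the results turn on. Each runs from 250 bases before to 50 bases after a transcription start in RefSeq (GRCm38.p6). Capitals mark matches to TTCNNNGAA, the form of site that STAT proteins bind, which reads the same on both strands.
Irf7, chr7:141266375-141266674, minus strand: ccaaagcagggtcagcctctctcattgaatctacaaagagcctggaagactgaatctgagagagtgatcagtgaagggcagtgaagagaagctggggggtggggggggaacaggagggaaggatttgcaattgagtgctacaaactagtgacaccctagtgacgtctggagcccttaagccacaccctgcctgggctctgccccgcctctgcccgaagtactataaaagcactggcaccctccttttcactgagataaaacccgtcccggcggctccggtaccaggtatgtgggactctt
Irf8, chr8:120736108-120736407, plus strand: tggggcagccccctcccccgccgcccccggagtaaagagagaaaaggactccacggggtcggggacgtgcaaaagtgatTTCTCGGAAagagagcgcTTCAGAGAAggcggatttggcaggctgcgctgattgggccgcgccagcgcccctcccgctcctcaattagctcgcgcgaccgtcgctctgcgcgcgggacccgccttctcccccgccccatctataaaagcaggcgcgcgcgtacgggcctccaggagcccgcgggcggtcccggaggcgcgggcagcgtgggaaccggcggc
Batf3, chr1:191098164-191098463, plus strand: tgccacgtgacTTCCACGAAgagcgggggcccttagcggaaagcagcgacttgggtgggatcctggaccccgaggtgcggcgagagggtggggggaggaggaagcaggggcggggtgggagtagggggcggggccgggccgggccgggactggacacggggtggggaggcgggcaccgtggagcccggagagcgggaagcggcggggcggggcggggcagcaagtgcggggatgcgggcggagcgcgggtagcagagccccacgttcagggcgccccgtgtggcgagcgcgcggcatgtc
Siglech, chr7:55767934-55768233, plus strand: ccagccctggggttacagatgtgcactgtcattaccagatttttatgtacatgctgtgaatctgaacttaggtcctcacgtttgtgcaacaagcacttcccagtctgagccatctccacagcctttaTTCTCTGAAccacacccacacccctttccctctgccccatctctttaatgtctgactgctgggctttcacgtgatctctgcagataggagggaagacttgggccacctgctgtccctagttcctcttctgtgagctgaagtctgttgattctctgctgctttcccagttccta
The Irf8 promoter shown held 2 matches, which began 171 and 153 bases before the start, Batf3 held 1 at 239 bases and Siglech 1 at 123 bases, and Irf7 held none. A further Irf8 promoter (chr8:120738389-120738688) and the promoters of Irf9, which differed between stages too, are not shown and held none. RefSeq lists 13 promoters for the 10 genes, and 5 of the 13 held the motif, beside 8.30% of all 32851 promoters. The core of the interferon-stimulated response element, searched on either strand as GAAA, 2 bases of any kind and GAAA again, was in 1 of the 13 (Irf2) and in 3.44% of all promoters. A match describes letters and not binding.

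Levels are given in the deposited unit, log2 CPM, a read count divided by library size on a log2 scale. The values show that batch differences had been removed before deposit, so an SD within a group is smaller than the spread between libraries was. Counts were not used here and the depth is unknown. A gene without reads lies at a zero level that differs by gene and batch and averages −4.96 log2 CPM. Among 4605 genes whose lowest levels in the 5 batches averaged to that value, 60.6% (ILCp 5) to 90.2% (ALP 7) lay at zero in a library. The markers Tcf7, Zbtb16 and Thy1 summed to 0.319 to 12.3 CPM in ALP, 422 to 9029 in EILP and 565 to 949 in ILCp. The libraries fall into 5 batches by their labels, of which batches 1, 2 and 4 hold all 3 stages, batch 5 ALP and EILP, and batch 3 EILP alone. Fold changes are given on the log2 scale with their standard error, from limma with batch as a term. A fit with no batch term counts degrees of freedom that the removal of batch had spent, so its p-values are too small. In bulk libraries, fewer cells of a type and less RNA per cell cannot be told apart.

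From ALP to EILP, the first innate step, Irf7, Irf9 and Siglech fell and Batf3 rose. These 3 lower and 1 higher call, at a limma adjusted p below 0.05 over all genes, stand beside 2.79% of all genes called lower and 2.25% called higher. From EILP to ILCp, the second step, 1 of the 10 genes fell, Irf8, beside 1.46% of all genes, and 0 rose, beside 1.76%. From ALP to ILCp Irf7, Irf8, Irf9 and Siglech fell, 4 genes beside 4.39% of all genes, and 1, Batf3, rose, beside 3.86%. At an unadjusted p below 0.05 limma gave 6, 3 and 6 of the 10 genes in these comparisons, which share libraries with each other. The share of all genes at that unadjusted threshold is not given here, so these counts cannot be set against it.

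**Figure D1:**
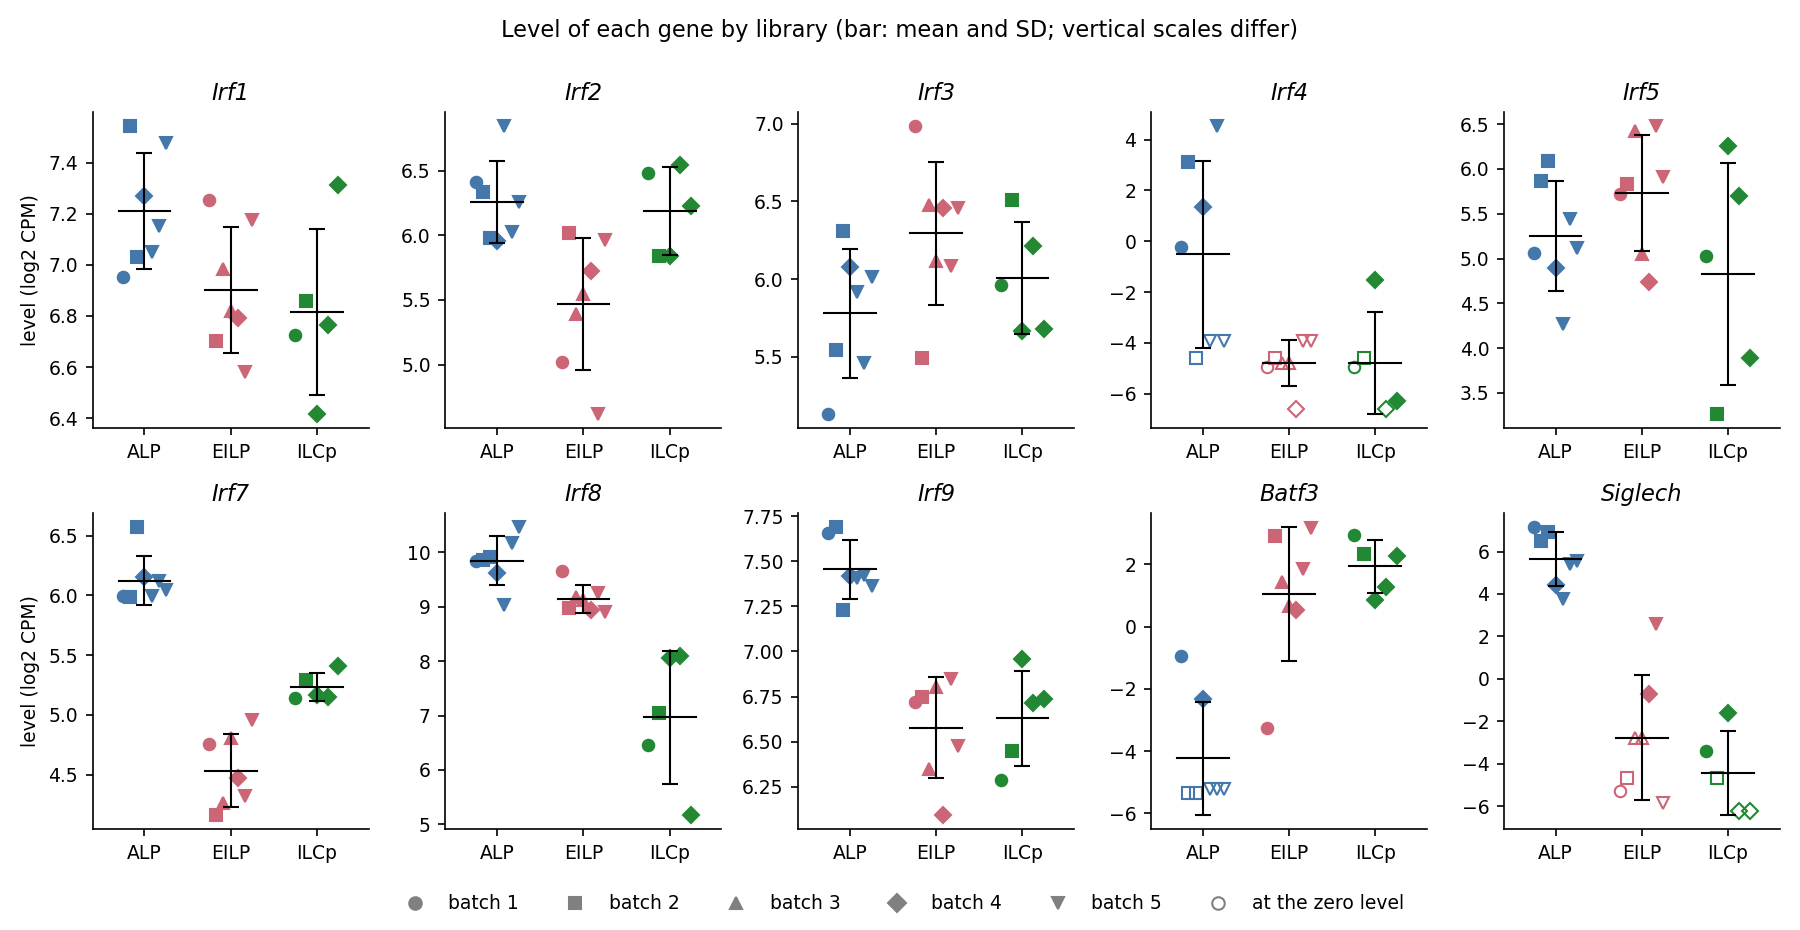
Level of each gene in log2 CPM (vertical axis, scales differ between panels) in every ALP, EILP and ILCp library, with marker shapes for batches, open markers for libraries at the zero level and bars for mean and SD. Every EILP library lies below every ALP library for Irf7, Irf9 and Siglech, and every ILCp library lies below every EILP library for Irf8.

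Irf7, which drives interferon alpha genes, was lowest in EILP. Its level ran from 5.99 to 6.57 with a median of 6.05 log2 CPM in ALP and from 4.16 to 4.96 with a median of 4.47 in EILP. In ILCp 1 to ILCp 5 it was 5.15, 5.30, 5.17, 5.15 and 5.41. No library of one stage reached the range of another, and ILCp lay between ALP and EILP. Irf7 fell by 1.59 ± 0.21 (SE) from ALP to EILP (3.01-fold, limma adjusted p = 0.000158), and within batches 1, 2, 4 and 5 the difference was −1.24, −2.12, −1.69 and −1.41. ILCp lay 0.70 ± 0.24 above EILP, higher in 3 of 3 batches, a difference that missed the threshold (limma adjusted p = 0.142). It passed in a limma fit with no batch term (adjusted p = 0.00694), where p-values are too small. From ALP to ILCp Irf7 fell by 0.89 ± 0.23 (limma adjusted p = 0.0276). That call was lost without ALP 4, ILCp 1 or ILCp 2, where the change was −0.87, −0.84 and −0.92, and with each library centred on its median (−0.76, adjusted p = 0.0854).

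Irf9, which carries the type I interferon signal to DNA, was lower at both innate stages. Its level ran from 7.23 to 7.69 with a median of 7.42 log2 CPM in ALP and from 6.09 to 6.85 with a median of 6.72 in EILP. In ILCp 1 to ILCp 5 it was 6.29, 6.45, 6.96, 6.71 and 6.74. All EILP and ILCp libraries lay below all ALP libraries, and EILP and ILCp overlapped. Irf9 fell by 0.88 ± 0.17 (SE) from ALP to EILP (1.84-fold, limma adjusted p = 0.00493), lower in 4 of 4 batches. From ALP to ILCp it fell by 0.83 ± 0.19 (limma adjusted p = 0.0141), lower in 3 of 3 batches. The second call was lost without ILCp 1 (−0.65) or ILCp 2 (−0.72) and with each library centred on its median (−0.70, adjusted p = 0.0540). ILCp against EILP gave 0.05 ± 0.20 (limma adjusted p = 0.938).

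Irf1, a rapid response gene of interferon gamma, and Irf2, which binds the same sites and can oppose it, passed in no comparison. Irf1 was at 7.21 ± 0.23, 6.90 ± 0.25 and 6.82 ± 0.32 log2 CPM in ALP, EILP and ILCp (SD, n = 7, 7 and 5), and all 3 ranges overlapped. Its difference from ALP to EILP was −0.31 ± 0.18 (SE, limma adjusted p = 0.412). Irf2 was at 6.26 ± 0.31, 5.47 ± 0.51 and 6.19 ± 0.34 log2 CPM in the same order, with the lowest mean in EILP. EILP against ALP gave −0.79 ± 0.27 for Irf2 (limma adjusted p = 0.122), lower in 4 of 4 batches, and ILCp against EILP gave 0.72 ± 0.32 (adjusted p = 0.270). With no batch term, where p-values are too small, Irf2 passed at both steps (limma adjusted p = 0.0169 and 0.0408).

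Irf3, a constitutive factor activated by cytosolic sensors, and Irf5, which acts downstream of Toll-like receptors, passed in no comparison. Irf3 was at 5.78 ± 0.41, 6.29 ± 0.46 and 6.01 ± 0.36 log2 CPM in ALP, EILP and ILCp (SD, n = 7, 7 and 5). Irf5 was at 5.25 ± 0.61, 5.73 ± 0.65 and 4.83 ± 1.24. The stages overlapped for both genes, both means were highest in EILP, and the smallest limma adjusted p was 0.368 for Irf3 and 0.495 for Irf5. In ILCp 1 to ILCp 5 the level of Irf5 was 5.03, 3.27, 6.25, 5.70 and 3.90, a spread of SD 1.24. In the GENCODE M21 annotation 14.1% of the Irf5 exon bases are shared with Tnpo3 on the other strand. No label states that counting used strand, so reads of the 2 genes may be mixed there.

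Irf8 (chromosome 8, 120736358 to 120756694, plus strand, GRCm38) was high in ALP and EILP and lower in ILCp. Its level ran from 9.03 to 10.46 with a median of 9.86 log2 CPM in ALP and from 8.90 to 9.66 with a median of 9.12 in EILP, and these ranges overlapped. In ILCp 1 to ILCp 5 it was 6.46, 7.05, 8.06, 8.09 and 5.18. Every ILCp library lay below every library of the other stages. EILP against ALP gave −0.70 ± 0.41 (SE), lower in 4 of 4 batches and not past the threshold (limma adjusted p = 0.420). From EILP to ILCp Irf8 fell by 2.18 ± 0.49 (4.53-fold, limma adjusted p = 0.0243), and within batches 1, 2 and 4 the difference was −3.20, −1.93 and −1.82. This call was lost without any one of EILP 1, EILP 2, EILP 3, EILP 4, EILP 5, ILCp 1 or ILCp 2. Over all single libraries left out the change ran from −2.42 to −1.80, with a highest adjusted p of 0.103. From ALP to ILCp Irf8 fell by 2.88 ± 0.47 (7.35-fold, limma adjusted p = 0.00107), a call that held with each of the 19 libraries left out in turn and was lost with ALP and ILCp fitted alone (−2.86, adjusted p = 0.0588).

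Irf8 is expressed in monocytes and their progenitors as well, and summed markers of monocytes and neutrophils were lower in ILCp than in EILP apart from 1 overlapping value. The 7 markers Mpo, Elane, Prtn3, Csf1r, Lyz2, S100a8 and S100a9 summed to 531 to 5969 CPM in ALP and 1559 to 38009 in EILP, where EILP 2 was highest. In ILCp 1 to ILCp 5 the sum was 396, 89.7, 1641, 1545 and 244 CPM. The markers differed in direction at the first step. Mean Csf1r was 7.20, 4.52 and 0.74 log2 CPM in ALP, EILP and ILCp, and mean Lyz2 8.40, 6.04 and 4.30. The mean of S100a9 was lower in EILP than in ALP too. Means of Mpo, Elane, Prtn3 and S100a8 were higher in EILP than in ALP, Mpo at 9.68 in ALP and 11.81 in EILP. ILCp 3 and ILCp 4 had the most Irf8 and the most of these markers among ILCp. In EILP this did not hold. EILP 2, with the highest sum, had Irf8 at 8.98 log2 CPM. EILP 1, with the most Irf8 of EILP at 9.66, had a sum of 2681 CPM. Of 18 genes of these cells 4 fell and 1 rose (median −2.97) from EILP to ILCp, beside 1.46% and 1.76% of all genes. Among them Mpo, Prtn3, Cebpe and Csf3r were on the lower side. Ccr2, also of this list, ran from 6.25 to 8.11 log2 CPM in EILP and from 9.53 to 10.90 in ILCp. From ALP to EILP 0 of the 18 fell and 2 rose (median 1.24), beside 2.79% and 2.25% of all genes. From ALP to ILCp 2 fell and 1 rose (median −2.32), beside 4.39% and 3.86%. Without ALP 7 and EILP 2 together, the Irf8 change from EILP to ILCp was −2.34 (limma adjusted p = 0.0620). The part of such cells in the result was not tested.

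The genes most like Irf8 over the 19 libraries, by Pearson correlation among 9350 genes with a mean above 2 log2 CPM, were Ly86 (r = 0.97), Lyl1 (r = 0.96), Ncf1 (r = 0.95), S1pr3 (r = 0.95) and Hlx (r = 0.94). Ly86 encodes MD-1, which binds a Toll-like receptor homologue, and Ncf1 a subunit of the phagocyte oxidase. Mean levels of Ly86 were 7.68, 6.72 and 5.12 log2 CPM in ALP, EILP and ILCp. The genes most like Irf7 were Cyth4 (r = 0.97), Tmem109 (r = 0.95), Plcg1 (r = 0.92), Rassf2 (r = 0.92) and Tspan13 (r = 0.91), and the mean of each was lowest in EILP. These values describe libraries that share stage, batch and normalization.

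Irf4 (chromosome 13, 30749226 to 30766976, plus strand) was found above zero mainly in ALP. ALP 1, ALP 2, ALP 4 and ALP 6 were at −0.21, 3.12, 1.36 and 4.52 log2 CPM, and the other 3 ALP libraries were at the zero level. All 7 EILP libraries were at the zero level. ILCp 3 was at −1.54 and ILCp 5 at −6.27, which is 5.06 and 0.33 above the zero level of their batch, and the other 3 ILCp libraries were at zero. No fold is given here against EILP, where the gene is listed at zero, and the limma adjusted p was 0.156 against ALP. Values of Irf4 against EILP listed further below show only changes of sign under alternatives and are not read as folds. ILCp against ALP gave −4.27 ± 1.80 (SE, limma adjusted p = 0.180). With no batch term, where p-values are too small, this passed (limma adjusted p = 0.0339).

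Batf3 (chromosome 1, 191097847 to 191108945, plus strand) was low in ALP and higher at both later stages. Its level ran from −5.35 to −0.94 with a median of −5.20 log2 CPM in ALP, where ALP 2, ALP 3, ALP 5, ALP 6 and ALP 7 were at the zero level. That level is known for Batf3 in batches 2 and 5 alone. In EILP the level ran from −3.27 to 3.15 with a median of 1.42. In ILCp 1 to ILCp 5 it was 2.95, 2.33, 0.86, 1.28 and 2.26. Every ILCp library lay above every ALP library, and EILP 1 was the EILP library within the ALP range. Batf3 rose by 5.26 ± 1.21 (SE) from ALP to EILP (limma adjusted p = 0.0168) and by 6.16 ± 1.38 from ALP to ILCp (adjusted p = 0.0106), sizes that depend on the zero level. Within batches 1, 2, 4 and 5 the EILP difference was −2.33, 8.25, 2.87 and 7.70, so batch 1 went the other way. The EILP call was lost without EILP 2 (4.56), EILP 6 (5.01) or EILP 7 (4.61), and the ILCp call without ILCp 2 (5.94). ILCp against EILP gave 0.90 ± 1.43 (limma adjusted p = 0.814).

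Siglech (chromosome 7, 55768178 to 55778925, plus strand) was present in every ALP library and in few of the others. Its zero level was tied between libraries in 3 batches, and in batches 1 and 5, where 1 library each (EILP 1 and EILP 7) lay lowest, it was taken as zero because the mean of the lowest levels over the 5 batches equals the common zero level. Its level ran from 3.77 to 7.14 with a median of 5.54 log2 CPM in ALP, and the lowest of these, ALP 5, lay 9.61 log2 units above the zero level of its batch. In EILP, EILP 5 was at −0.70 and EILP 6 at 2.57, and the other 5 libraries were at zero. In ILCp, ILCp 1 was at −3.39 and ILCp 3 at −1.61, and the other 3 libraries were at zero. No library of the later stages reached the ALP range. Siglech fell by 8.45 ± 1.43 (SE) from ALP to EILP (limma adjusted p = 0.00184) and fell by 10.10 ± 1.64 from ALP to ILCp (adjusted p = 0.000944), sizes that depend on the zero level. Both calls held with each of the 19 libraries left out in turn. ILCp against EILP gave −1.65 ± 1.69 (limma adjusted p = 0.698). In EILP 6, the EILP library with the most Siglech, the other 7 plasmacytoid markers were Tcf4 at 5.65, Bst2 at 6.27, Ly6c2 at 8.52, Ccr9 at −5.70, Cox6a2 at 3.81, Pacsin1 at 1.15 and Tlr7 at −4.20 log2 CPM. Their sum, 511 CPM, was the highest of EILP, as were Bst2 and Ly6c2, while Tcf4 and Ccr9 were the lowest of EILP there. Most of that sum was Ly6c2, which is in the list of monocyte and neutrophil genes too.

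The separation of stages can be set beside the whole table. From ALP to EILP 3 of the 10 genes had all EILP libraries below all ALP libraries (Irf7, Irf9 and Siglech), beside 2.38% of all genes. From EILP to ILCp Irf8 lay wholly lower, beside 5.34% of all genes, and Irf7 wholly higher, beside 3.35%. Over both steps 4 genes lay wholly lower (Irf7, Irf8, Irf9 and Siglech), beside 4.96%, and Batf3 wholly higher, beside 4.01%.

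**Figure D2:**
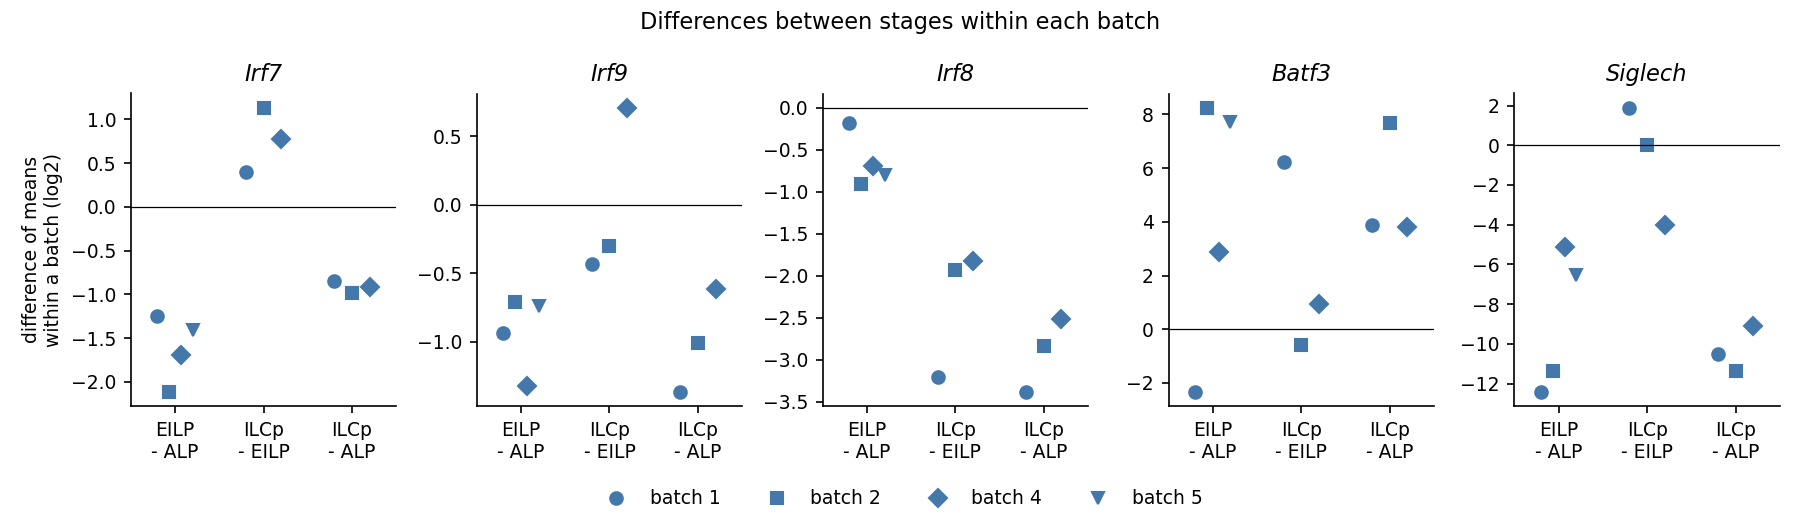
Difference between stage means within each batch (vertical axis, log2, scales differ between panels) for Irf7, Irf9, Irf8, Batf3 and Siglech, with marker shapes for batches. Irf7, Irf9, Irf8 and Siglech are lower in EILP than in ALP in 4 of 4 batches, Irf8 is lower in ILCp than in EILP in 3 of 3, and Batf3 is lower in EILP in batch 1 and higher in the other 3.

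Levels of different genes were compared per length of the principal transcript, as log2 CPM per kb. Irf8 led in ALP at 8.34 ± 0.45 (SD, n = 7), above Irf9 at 6.16 ± 0.16 and Irf1 at 6.11 ± 0.23, which lay within their spread of each other. Irf8 led in EILP too, at 7.64 ± 0.26 (SD, n = 7), above Irf1 at 5.81 ± 0.25, and Irf7 was at 3.60 ± 0.31. In ILCp, Irf1 at 5.72 ± 0.32 (SD, n = 5), Irf8 at 5.46 ± 1.22 and Irf9 at 5.33 ± 0.26 did not differ beyond their spread. Siglech in ALP, at 4.57 ± 1.27 per kb, was within the spread of Irf3 at 4.76 ± 0.41. Batf3 stayed below every factor but Irf4 in ILCp, at 2.25 ± 0.85 per kb.

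**Figure D3:**
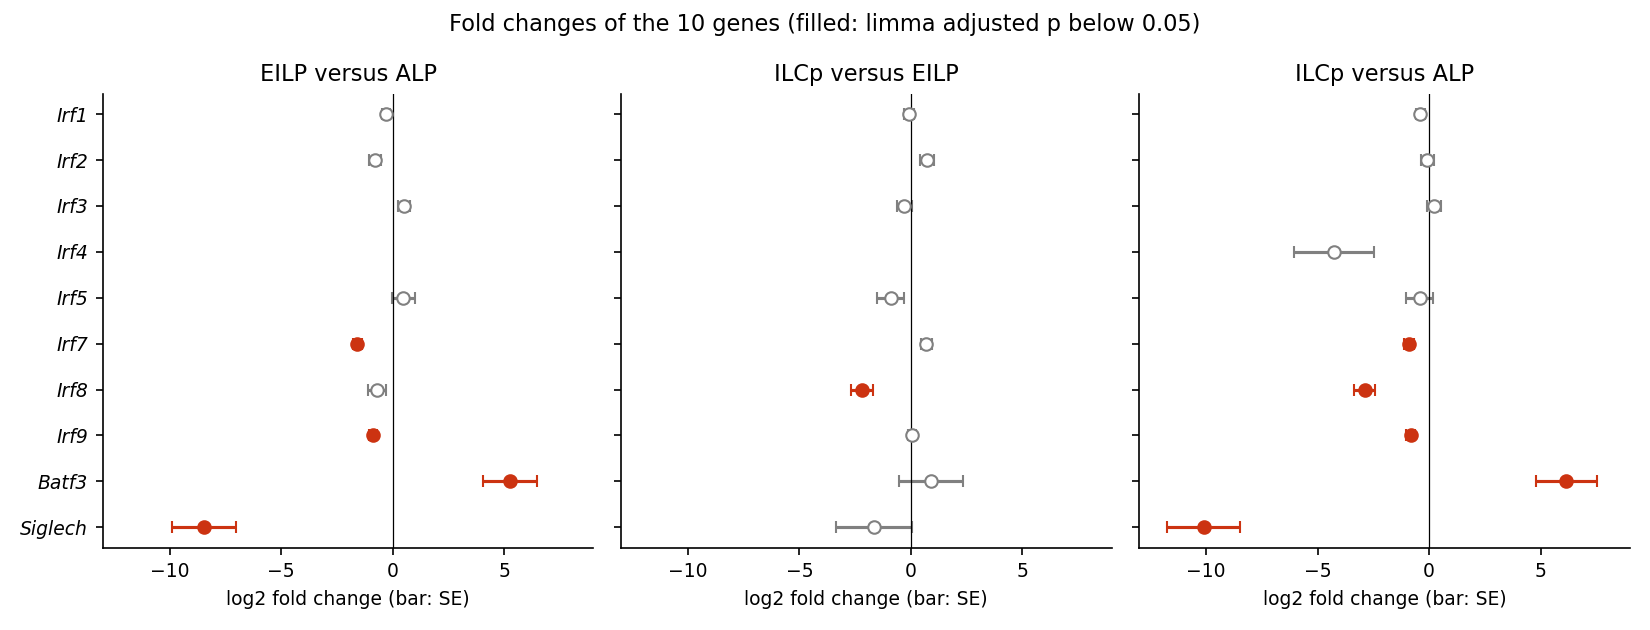
Log2 fold changes of the 10 genes (horizontal axis, bars are standard errors) in the 3 comparisons, filled where the limma adjusted p was below 0.05. Irf4 is left out of both comparisons with EILP, where it is at the zero level. Siglech and Batf3 lie furthest from 0, on opposite sides, in EILP versus ALP and in ILCp versus ALP.

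Of 22 other genes of plasmacytoid dendritic cells, 9 fell and 0 rose (median −1.30) from ALP to EILP, where all genes had a median of 0.00. At the second step 4 fell and 0 rose (median −0.72), with −0.08 for all genes, and from ALP to ILCp 11 fell and 0 rose (median −1.70), with −0.03. Over all genes 2.79% fell and 2.25% rose at the first step and 1.46% and 1.76% at the second. From ALP to ILCp these shares were 4.39% and 3.86%. With single libraries left out, 1 to 3 fell at the second step, with the lowest count without EILP 1 or EILP 5, and 1 fell with the 2 groups fitted alone, 0 in batch 4 alone and 8 with no batch term. Tcf4, the E protein that specifies these cells, was at 8.05 ± 0.26, 6.29 ± 0.38 and 6.64 ± 0.22 log2 CPM in ALP, EILP and ILCp (SD, n = 7, 7 and 5) and fell by 1.76 ± 0.20 (SE) from ALP to EILP (limma adjusted p = 4.85e-05). Mzb1, a chaperone of antibody-secreting and plasmacytoid cells, averaged 3.38 ± 1.08 log2 CPM in ALP, whereas 5 of 7 EILP libraries showed it at zero (limma adjusted p = 0.000632). Runx2, which these cells need to leave the marrow, fell by 2.03 ± 0.31 from EILP to ILCp (limma adjusted p = 0.00226). Bst2, a virus-tethering protein of their surface, fell by 1.19 ± 0.20 from ALP to EILP (limma adjusted p = 0.00144). The means of Ly6c2, Spib, Upb1, Pacsin1, Smim5, Grn and Plac8, also of this list, were higher in EILP than in ALP without a call. Ly6c2 averaged 5.96 log2 CPM in ALP and 7.53 in EILP, and Smim5 4.52 and 5.21. The genes most like Siglech over the 19 libraries, among 10675 genes with a mean above 0, were Bst2 (r = 0.96), Gm12250 (r = 0.94), Cdk1 (r = 0.93), Hmgb1 (r = 0.93) and Lifr (r = 0.93). Without Siglech, the 7 markers Tcf4, Bst2, Ly6c2, Ccr9, Cox6a2, Pacsin1 and Tlr7 summed to 802 to 930 CPM in ALP, 242 to 511 in EILP and 237 to 454 in ILCp.

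Of 24 genes of interferon and nucleic acid sensing, 5 fell and 1 rose (median −0.50) from ALP to EILP, beside 2.79% and 2.25% of all genes. Tlr7, an endosomal RNA sensor that signals to Irf7, was at 6.10 ± 1.48, −2.48 ± 2.42 and 1.05 ± 3.55 log2 CPM in ALP, EILP and ILCp and fell from ALP to EILP (limma adjusted p = 0.00287). Ifnar2, a chain of the type I interferon receptor, fell by 1.15 ± 0.19 (SE, limma adjusted p = 0.00175), and Ifngr2, a chain of the interferon gamma receptor, fell by 1.57 ± 0.29 (adjusted p = 0.00337). Jak2, a kinase of the interferon gamma receptor, rose by 1.16 ± 0.22 (limma adjusted p = 0.00497). Ifnar1, the other type I chain, was at 7.50 ± 1.54, 6.05 ± 1.21 and 3.61 ± 3.40 log2 CPM and passed nowhere. Stat2, which binds Irf9, was at 5.17 ± 1.01, 4.42 ± 0.99 and 4.22 ± 0.55 and passed in no comparison. At the second step 0 fell and 1 rose (median 0.52), beside 1.46% and 1.76% of all genes. The 1 was Jak1, a kinase of both interferon receptors, higher by 1.04 ± 0.14 (limma adjusted p = 0.00120). Over both steps 1 fell and 2 rose (median −0.10), beside 4.39% and 3.86% of all genes. That median was 0.03 with each library centred on its median. Counts of 1 or 2 among 24 genes are not read as a result about the list.

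Of 30 interferon-stimulated genes, 7 fell and 0 rose (median −1.54) from ALP to EILP, beside 2.79% and 2.25% of all genes. Between EILP and ILCp 1 fell and 0 rose (median −0.06), beside 1.46% and 1.76%, the 1 being Psmb9 (0 without ILCp 2). From ALP to ILCp 9 fell and 0 rose (median −1.44), beside 4.39% and 3.86%. Ifi44 was at 7.29 ± 1.47, 0.19 ± 1.96 and 2.74 ± 1.05 log2 CPM in ALP, EILP and ILCp (SD, n = 7, 7 and 5) and fell by 7.10 ± 0.99 (SE) from ALP to EILP (limma adjusted p = 0.000309). Ifit1, which binds foreign RNA, was at 5.54 ± 1.35, −1.74 ± 2.21 and 2.35 ± 2.55 and fell at the same step (limma adjusted p = 0.00242). Isg15, a ubiquitin-like protein, was at 4.03 ± 0.32, 2.82 ± 0.31 and 1.98 ± 0.94 and fell from ALP to ILCp (limma adjusted p = 0.0180). Ifit3 was at 0.80 ± 3.13, −2.23 ± 2.86 and −0.20 ± 3.96 and passed nowhere. Not all genes of the list went down. Mean Zbp1 was 2.34, 3.52 and 5.09 log2 CPM in ALP, EILP and ILCp and mean Isg20 2.74, 3.41 and 4.65, higher at each step without a call. Mean Gbp2 was 5.41, 2.14 and 5.36 and mean Rtp4 7.12, 2.63 and 5.67, lowest in EILP. Of these genes 5 are in another list too, Bst2 among them.

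Of 20 factors that partner or regulate the family, 1 fell and 2 rose (median −0.10) from ALP to EILP, beside 2.79% and 2.25% of all genes. That median was 0.12 with each library centred on its median. Between EILP and ILCp 2 fell and 2 rose (median 0.07, or −0.02 with centring), beside 1.46% and 1.76%. From ALP to ILCp 1 fell and 4 rose (median 0.23), beside 4.39% and 3.86%. Spi1, which encodes PU.1, a partner of Irf4 and Irf8 on DNA, was at 7.29 ± 0.36, 7.32 ± 0.42 and 4.81 ± 1.32 log2 CPM in ALP, EILP and ILCp and fell by 2.52 ± 0.54 (SE) from EILP to ILCp (limma adjusted p = 0.0192). Nfkb1 rose by 1.88 ± 0.19 at the first step (limma adjusted p = 1.53e-05) and fell by 1.57 ± 0.23 at the second (adjusted p = 0.00163). Ets1 went the other way, falling by 1.76 ± 0.37 and then rising by 4.81 ± 0.44 (limma adjusted p = 0.00865 and 1.97e-05).

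Of 22 genes of conventional dendritic cells, where Batf3 and Irf8 act, 0 fell and 2 rose (median 0.74) from ALP to EILP. Over all genes 2.79% fell and 2.25% rose there. The genes that rose were Id2 and Nfil3, which innate lymphoid progenitors use as well. At the second step 1 fell and 2 rose (median −0.09), beside 1.46% and 1.76% of all genes, or 0 rose without EILP 5. From ALP to ILCp 3 fell and 2 rose (median 0.63), beside 4.39% and 3.86%. Xcr1, a chemokine receptor of cross-presenting dendritic cells, was at −4.76 ± 2.75, −2.83 ± 1.56 and 5.25 ± 1.00 log2 CPM in ALP, EILP and ILCp, and rose by 8.09 ± 1.57 (SE) from EILP to ILCp (limma adjusted p = 0.0114). Clec9a, another marker of those cells, was at the zero level in 3 of 7 ALP, 5 of 7 EILP and 4 of 5 ILCp libraries and passed nowhere. Of 14 B lineage genes 6 fell and 0 rose (median −4.00) from ALP to EILP and 6 fell and 0 rose (median −4.18) from ALP to ILCp. For 12 T lineage genes these were 0 fell and 2 rose (median 2.24) and 0 fell and 4 rose (median 3.05), and for 12 NK cell genes 0 fell and 4 rose (median 2.57) and 0 fell and 6 rose (median 2.30). At the second step 0 genes of these 3 lists were called. Of 10 sorting and reporter genes 1 fell and 7 rose (median 2.30), 0 fell and 3 rose (median −0.20) and 1 fell and 8 rose (median 2.55) in the 3 comparisons in the same order as above. The same shares of all genes stand beside the counts of the B lineage, T lineage, NK cell and sorting lists.

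**Figure D4:**
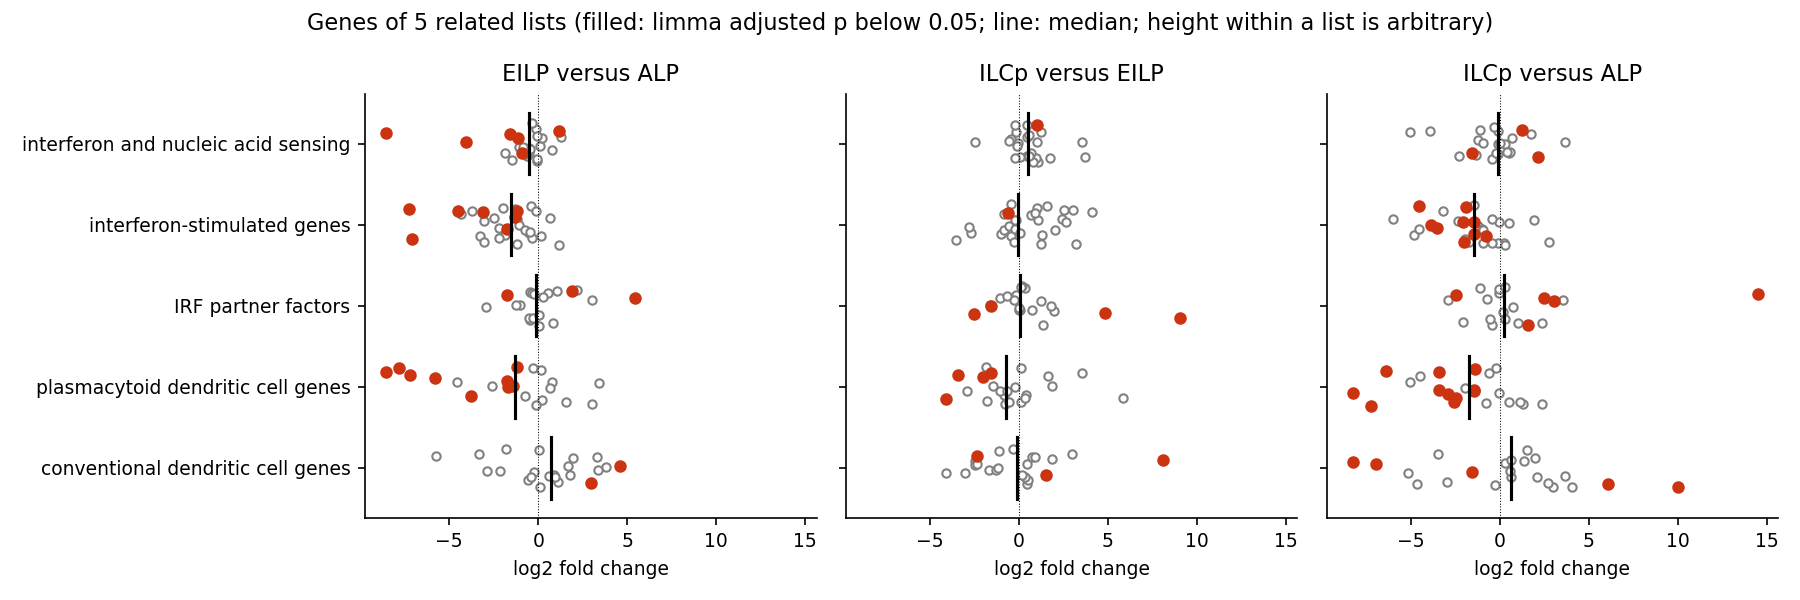
Log2 fold changes (horizontal axis) of the genes of 5 lists in the 3 comparisons, with filled points for a limma adjusted p below 0.05 and a line at the median of each list. Called genes of plasmacytoid dendritic cells and interferon-stimulated genes lie on the lower side in each comparison.

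Between the 2 Plzf-cre-GFP and the 3 Tcf7EGFP libraries of ILCp, limma called 0 of the 10 genes, beside 0.0752% of all genes, and 0 had an unadjusted p below 0.05. The lowest unadjusted limma p was 0.132. The 2 Plzf-cre-GFP libraries are in batch 4 with 1 Tcf7EGFP library of ILCp, and batches 1 and 2 hold 1 Tcf7EGFP library of ILCp each. Reporter and batch are thus partly mixed, and 0 calls among so few libraries cannot show that the alleles are alike. The Plzf-cre-GFP libraries were the highest and the lowest of ILCp for Irf8, at 8.09 and 5.18 log2 CPM.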

How the data were processed

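Libraries were made with a low-input kit, per the labels' protocols. Reads were converted with bcl2fastq 1.8.4 and STAR 2.4.0h, edgeR and limma and the build mm10 (GRCm38) are named, per the submitters' processing notes. No source used here names the gene annotation or the counting tool. The deposited values are log2 CPM for 18607 genes, which the authors had normalized and cleared of batch. No batch coefficient beside the groups exceeds 1.84e-08 in these values. CPM sums run from 908573 to 1035204 per library. With no counts, no interval for counting error can be given.

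Differences were tested with limma 3.58.1 (R 4.3.3) on all 19 libraries, with group and batch as terms, a mean-variance trend, no filter and two-sided p-values adjusted by Benjamini-Hochberg over all genes. The batch term keeps the degrees of freedom that batch clearing had spent from being counted as residual ones. The zero level of a gene in a batch is its lowest value there. It was accepted where libraries tie at that value in every batch (2426 genes, within 1e-05). It was also accepted where the mean of the lowest values over the 5 batches equals the common zero level of those tied genes. This second rule holds for 4605 genes, 2423 of the tied ones among them. For other genes (Batf3) a library counts as zero only where it ties within its batch. The scripts were tested on simulated data. Over the 3 comparisons, 9.3% to 12.0% of planted changes of 1 log2 unit were called. For changes of 2 units it was 30.7% to 36.0%, and for 8 units 92.0% to 96.7%. False calls made up 4.36% (EILP versus ALP), 6.08% (ILCp versus EILP) and 4.83% (ILCp versus ALP) of calls. A gene that was not called may thus still differ. Gene positions and lengths are from GENCODE M21 (GRCm38). The members and 10 lists were chosen with earlier results of these data known. The text names all members, up to 3 genes called in each direction per list and comparison with the smallest p, fixed markers (some are not reported here), and the 5 genes most like Irf8, Irf7 and Siglech. Further genes of a list (such as Csf3r and Smim5) were named after their values were seen where that rule did not hold them. Replicate numbers did not pair libraries: 1 of 17 same-numbered pairs had a correlation of deviations over 0.1. The alternatives changed the batch term, the samples, the scaling, the filter and the threshold.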

Additional observations from a re-analysis of the deposited data

Results flagged for a closer look

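For 3 genes 1 library stood apart from the rest of its group, by the gap to the nearest library as a share of the group's range. There were 30 sets of 1 gene in 1 group, of which those with 4 to 10 libraries count, and chance marks about 1 in 20. Irf7 in ALP 3 was at 6.57 log2 CPM with the nearest ALP library at 6.16, a gap of 0.707 of the range where 0.568 is the critical value for 7 libraries. Without ALP 3 Irf7 changed by −1.51 from ALP to EILP (limma adjusted p = 0.000303). Batf3 in EILP 1 was at −3.27 log2 CPM with the nearest EILP library at 0.54, a gap of 0.594 of the range. Without EILP 1 Batf3 changed by 6.71 from ALP to EILP (limma adjusted p = 0.000369). Irf4 in EILP 5 was at −6.60 log2 CPM with the nearest at −4.94, a gap of 0.617 of the range. All EILP libraries are at the zero level of Irf4, and −6.60 is that level in batch 4.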

How the results depend on the processing

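Of 1041 values of single genes under alternatives, 942 kept direction and call, 45 lost the call, 13 gained it and 41 changed sign, all for differences that were not called either way. For ILCp against EILP these were Irf1 (0.0093), Irf4 (−0.45) and Irf9 (−0.0079) under the replicate block, Irf1 (0.039) and Irf5 (0.55) in batch 4 alone, Irf4 (−0.088) and Irf9 (−0.038) with median centring, Irf9 (−0.010) without the Plzf-cre-GFP libraries. For ILCp against ALP these were Irf2 (0.0075) with the 2 groups only, Irf2 (0.025) with batches that hold both groups, Irf2 (0.25), Irf3 (−0.23) and Irf5 (0.39) in batch 4 alone, Irf2 (0.056) with median centring. For ILCp against EILP, with single libraries left out, Irf1 ran from −0.19 to 0.064, Irf3 ran from −0.58 to 0.0039, Irf4 ran from −1.06 to 0.45, Irf9 ran from −0.23 to 0.23 and Batf3 ran from −0.92 to 1.59. For ILCp against ALP, with single libraries left out, Irf2 ran from −0.23 to 0.13, Irf3 ran from −0.057 to 0.38 and Irf5 ran from −0.71 to 0.46. Between the reporter alleles, with single libraries left out, Irf3 ran from −0.62 to 0.14, Irf5 ran from −0.97 to 1.61, Irf7 ran from −0.030 to 0.23, Irf8 ran from −2.16 to 0.76 and Batf3 ran from −1.87 to 0.15. Irf4 against EILP compares libraries nearly all at zero.
From ALP to EILP 4 of the 10 genes were called. The count was 6 with no batch term or batch as a random effect (Irf2 and Irf4 gained), 3 with the 2 groups only, 2 with the replicate number as a block, 1 in batch 5 alone, 2 among genes above the median of mean level (which leaves out Siglech, Batf3 and Irf4), and 3 to 4 with single libraries left out. From EILP to ILCp 1 was called, and 3 with no batch term, 4 with batch as a random effect, and 0 with the 2 groups only, with batches that hold both groups, in batch 4 alone, without ALP 7 and EILP 2 (chosen after seeing the data) and with limma without trend. It was 0 to 1 with single libraries left out. From ALP to ILCp 5 were called, and 6 with no batch term (Irf4 gained), 7 with batch as a random effect (Irf1 and Irf4), 4 with the 2 groups only (Irf8 lost), 3 under the block, with batches that hold both groups, with median centring, above the median level and at a change of at least 2-fold, 0 in batch 4 alone, and 2 to 5 with single libraries left out. Between reporter alleles the count was 0 throughout. Calls over all genes are given below for median centring alone. Under the other alternatives, counts of these genes and of the lists cannot be set against the share of all genes. Under the block, which shares only a number, the calls lost were Irf9 and Batf3 from ALP to EILP and Irf7, Irf9 and Batf3 from ALP to ILCp, and Irf4 was gained there. Calls from ALP to EILP went from 9 to 5 among genes of plasmacytoid dendritic cells and from 7 to 5 among interferon-stimulated genes under the block. Where single batches or few libraries were used, fewer samples entered the fit. Fits with no batch term or with batch as a random effect count degrees of freedom that batch clearing had spent. Their p-values are too small, so the calls gained there are not read as results. For the other settings the cause was not tested. Median centring moved all genes by 0.22, −0.09 and 0.13 and the higher and lower calls over all genes from 419 and 520 to 804 and 395, from 327 and 271 to 279 and 390, and from 718 and 816 to 813 and 584. Depth is unknown, so absence of Siglech, Irf4 or Batf3 reads in a library limits only what that library could show.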
